A study of Mus musculus with 6 samples.

Results

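Non-muscle cytoskeletal genes of 3 families were followed in mouse lung: heavy chains of non-muscle myosin (Myh9, Myh10, Myh14), septins (Sept2, Sept4, Sept7, Sept9) and LIM-domain proteins that bind actin or myosin (Limch1, Ablim1, Ablim3). These 10 genes, of 23238 gene symbols in the count tables, were chosen by symbol, as cytoskeletal families that hold several genes with lower counts in the same comparison of PM with PBS described here. Their folds between the groups, and any call the fit across all genes gave them, are therefore a description of how they were selected and not a test of them. Each of the 10 was found once in every table, and all 10 passed the filter on low counts. The study sequenced RNA from the lungs of wild-type (WT) mice given either PM or vehicle, phosphate-buffered saline (PBS), both by the route that the labels abbreviate i.t., and its title describes the PM exposure as chronic. The labels do not spell out PM, and the sources used here give neither dose, duration, age nor sex. Both groups share the WT genotype and the i.t. delivery, and no untreated lung was analysed here.

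Non-muscle myosin II is a motor built from paired heavy chains with light chains, and it pulls on actin filaments once its regulatory light chain is phosphorylated, which sets cell shape, tension and division. Septins are GTP-binding proteins that assemble into hetero-oligomeric filaments and rings at membranes and along actin bundles, where they act as scaffolds and diffusion barriers. Actin-binding LIM proteins link actin filaments to adaptor and signalling proteins, and LIMCH1 is known as a binding partner of non-muscle myosin IIA that promotes its activity. In the lung, epithelial, endothelial, mesenchymal and blood-derived cells all contain such proteins, and loss of Myh10 in mice is known to disturb the building of alveoli.

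Of 6 deposited tables, 3 per group, 2 tables, labelled PBS replicates 1 and 2, held the same values in each of their 23282 entries and were counted as 1 library, so that 2 PBS libraries (PBS 1 and PBS 3) stood against 3 PM libraries (PM 1, PM 2 and PM 3). Levels are given as CPM, counts relative to the library's total on a scale common to all libraries, after correction of the totals for composition by TMM (the trimmed mean of M values). Total counts ran from 7410200 to 8827202 per library, at which 3 counts, the most that a count of 0 allows, correspond to 0.348 to 0.430 CPM (counting error only). Log2 folds, PM minus PBS, come from edgeR's quasi-likelihood fit to 14057 tested genes, and a gene with a p below 0.05 after Benjamini-Hochberg adjustment was called. Against the labelled tissue, 6 alveolar type 2 markers of the lung summed to between 18410 and 23650 CPM in every library and Ager, a marker of alveolar type 1 cells, stood between 2368 and 3266 CPM.

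The 10 genes fell into 2 sets of unlike size. Myh10, Sept4, Limch1 and Ablim3 were each lower in all PM libraries than in both PBS libraries, by 39.1% to 42.5% of the PBS mean, whereas the other 6 had log2 folds between -0.20 and 0.08. Each family thus held at least 1 gene with a large difference beside relatives with a small one. Together the 10 genes took 0.350% and 0.368% of all counts in PBS 1 and PBS 3, and 0.263%, 0.223% and 0.273% in PM 1, PM 2 and PM 3. In edgeR's fit 4 of the 10 were called lower and 0 higher, beside 0.0854% of all tested genes called lower and 0.142% called higher. For 5 of the 10 (those 4 and Sept7) every PM library lay below every PBS library, beside 16.1% of all tested genes. Since this comparison supplied the genes, nothing is read from these counts. The median log2 fold of the 10 was -0.18 and 9 of them were below 0. All tested genes had a median of 0.01, with 48.9% below 0. The same choice of genes lies behind these values, so nothing is read from them either. In all, 371 tested genes had a log2 fold at or below that of Limch1, the smallest fall of the 4.

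**Figure D1:**
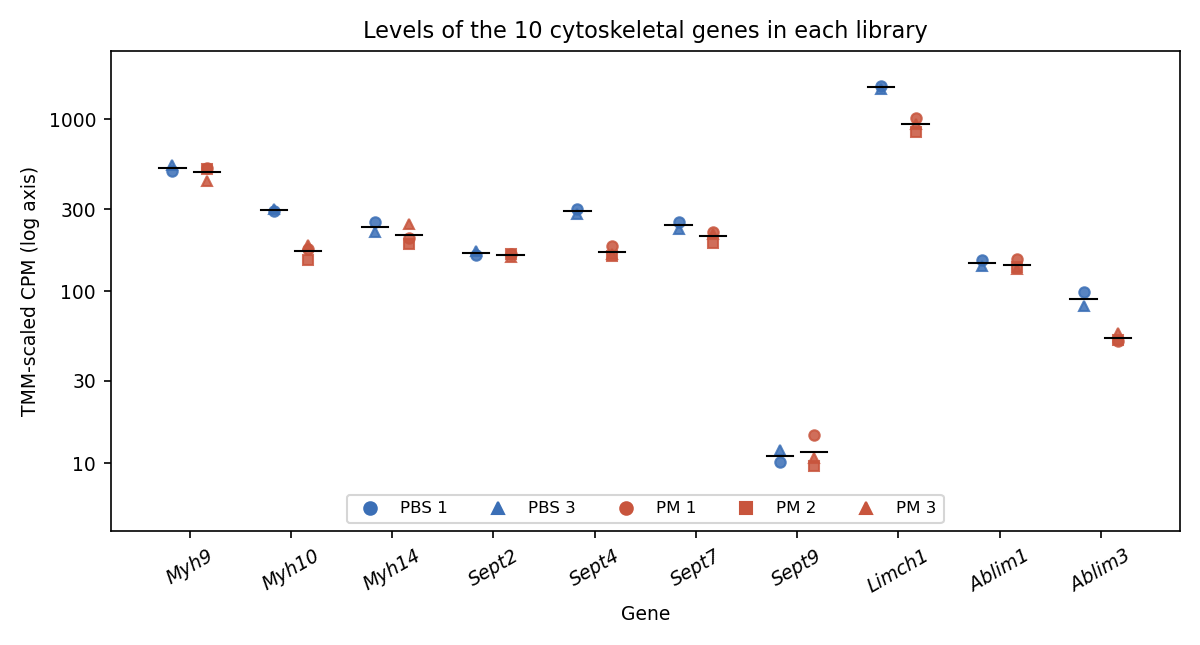
TMM-scaled CPM (log axis) of the 10 genes in each library, PBS in blue and PM in red, with a black bar at each group mean. The PM points of Myh10, Sept4, Limch1 and Ablim3 lie clear below their PBS points, while those of Myh9, Myh14, Sept2, Sept9 and Ablim1 overlap.

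Among the heavy chains, Myh10, which encodes the heavy chain of non-muscle myosin IIB, was the one gene with a large difference. Myh10 was measured at 293 and 301 CPM in PBS 1 and PBS 3, and at 176, 151 and 185 CPM in PM 1, PM 2 and PM 3. All PM libraries were low, PM 2 lowest, and the groups were far from overlapping. The means were 297 ± 6.14 CPM (SD, n = 2) in PBS and 171 ± 17.7 (SD, n = 3) in PM, a log2 fold of -0.80 ± 0.12 (SE). Myh9, the heavy chain of myosin IIA and the most abundant of the 3, had 499 and 539 CPM in PBS and 519, 515 and 439 in PM. PM 1 and PM 2 lay between the PBS libraries and PM 3 below both, so the groups overlapped, with a log2 fold of -0.08 ± 0.12 (SE). Myh14, the heavy chain of myosin IIC, had 253 and 220 CPM in PBS and 205, 187 and 244 in PM. Here too the groups overlapped, PM 3 being near the top and PM 2 at the bottom, and the log2 fold was -0.16 ± 0.13 (SE). Within each library, the count of Myh10 was 0.586 and 0.559 of that of Myh9 in PBS, and 0.339, 0.293 and 0.421 in PM. Against Myh14 the same ratio was 1.16 and 1.37 in PBS and 0.859, 0.808 and 0.758 in PM. Both ratios, which no scaling of the libraries can alter, were lower in every PM library than in either PBS library.

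To compare levels between the genes, CPM was divided by the length of each gene's longest coding transcript. On this scale (CPM per kilobase) Myh10 made up 26.2% and 26.7% of the 3 heavy chains in PBS 1 and PBS 3, and 18.3%, 16.6% and 19.8% in PM 1, PM 2 and PM 3. Myh9 made up 46.7% and 49.9% in PBS and 56.3%, 59.0% and 49.0% in PM, so its share in PM 3 lay within the PBS range. Myh14 made up 27.1% and 23.4% in PBS and 25.4%, 24.5% and 31.2% in PM, again with overlap. The sum of the 3 was 144 and 145 CPM per kilobase in PBS and 124, 117 and 121 in PM, and most of that difference was in Myh10.

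The 3 heavy chains are encoded at separate loci of the GRCm38 (mm10) genome in the GENCODE M21 annotation: Myh10 at chr11:68691559-68816632 on the plus strand, Myh9 at chr15:77760587-77842175 and Myh14 at chr7:44605803-44670843, both on the minus strand. Their coding sequences are related, with nucleotide identity of 74.1% between Myh9 and Myh10, 67.9% between Myh9 and Myh14 and 65.6% between Myh10 and Myh14. Reads from long identical stretches could be assigned to either gene, so the longest run shared by the Myh9 and Myh10 transcripts is shown. It spans 122 bases of coding sequence within exon 13 of both transcripts, at chr15:77786539-77786660 (minus strand) in Myh9 and chr11:68768199-68768320 (plus strand) in Myh10. Capitals mark the 65 bases that the smooth muscle heavy chain Myh11 also holds.
Myh9 and Myh10 shared run: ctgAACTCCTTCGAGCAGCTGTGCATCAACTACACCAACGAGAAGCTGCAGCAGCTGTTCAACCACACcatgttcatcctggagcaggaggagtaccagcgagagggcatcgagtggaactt

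Such stretches were short beside the whole transcripts. Of all 50-base windows, 1.12% in Myh9 and 0.947% in Myh10 occurred in a gene of another name (each other or Myh11). In Myh14 and the 7 other members the value was 0. Myh14 still shared exact runs of 49 bases with Myh10 and 47 with Myh9, each shorter than the window. The search read transcripts in the sense direction only and passed over entries of the same name. Stretches shared with genes on the opposite strand, or with another entry named Sept2, were therefore not counted. Myh11, which is also one of the smooth muscle markers described later, had 68.6 and 61.5 CPM in PBS and 69.9, 69.8 and 61.0 in PM, with overlapping groups. The promoters of the 3 heavy chains are shown because the genes differed in their folds although their proteins are close relatives. Each sequence is the window of 250 bases before to 50 after the gene's RefSeq start (GRCm38.p6), read along the gene's strand. The windows are at chr11:68691665-68691964 (plus) for Myh10, chr15:77842126-77842425 (minus) for Myh9 and chr7:44670794-44671093 (minus) for Myh14. For Myh9 and Myh14 the GENCODE gene begins at the same base. The GENCODE gene of Myh10 begins at chr11:68691559, ahead of its whole window, so the annotations differ on where Myh10 starts. Capitals mark matches on either strand to GGGCGG (the GC box), GGAATG and TATAAA.
Myh10 promoter: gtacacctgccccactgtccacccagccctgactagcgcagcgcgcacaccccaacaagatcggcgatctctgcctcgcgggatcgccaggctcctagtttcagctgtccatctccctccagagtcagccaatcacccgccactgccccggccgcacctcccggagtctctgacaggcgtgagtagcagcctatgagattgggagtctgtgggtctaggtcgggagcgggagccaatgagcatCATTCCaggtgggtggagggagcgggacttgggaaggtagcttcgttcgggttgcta
Myh9 promoter: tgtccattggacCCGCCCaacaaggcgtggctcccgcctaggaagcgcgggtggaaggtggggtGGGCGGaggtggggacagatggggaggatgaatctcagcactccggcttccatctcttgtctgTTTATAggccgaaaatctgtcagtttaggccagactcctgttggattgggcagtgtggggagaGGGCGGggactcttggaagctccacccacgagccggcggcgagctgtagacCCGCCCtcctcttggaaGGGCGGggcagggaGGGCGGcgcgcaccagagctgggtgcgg
Myh14 promoter: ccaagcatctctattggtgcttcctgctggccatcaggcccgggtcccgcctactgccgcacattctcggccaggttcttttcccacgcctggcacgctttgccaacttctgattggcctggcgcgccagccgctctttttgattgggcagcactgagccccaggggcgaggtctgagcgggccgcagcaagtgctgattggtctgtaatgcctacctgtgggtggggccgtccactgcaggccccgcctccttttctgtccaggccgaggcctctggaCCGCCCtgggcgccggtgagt

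The Myh9 window held 6 matches to GGGCGG and 1 to TATAAA, the Myh14 window 1 to GGGCGG, and the Myh10 window 0 to GGGCGG and 1 to GGAATG. Of all 32851 RefSeq promoter windows searched, 35.7% held GGGCGG, 14.7% GGAATG and 13.6% TATAAA. The CArG box, the element read by serum response factor (SRF), was in 0 of the 23 windows of the 9 genes with an entry and in 1.63% of all windows. These are matches of letters within the windows and do not show binding.

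Of the 4 septins among the 10 genes, Sept4 had the largest log2 fold in size. Sept4, a septin of the Sept2 subgroup known from sperm tails and stellate cells (chr11:87568903-87590539, plus strand), had 301 and 280 CPM in PBS 1 and PBS 3, and 183, 159 and 164 CPM in PM 1, PM 2 and PM 3. PM 1, the highest PM library, was still far under both PBS libraries. Means were 291 ± 15.3 CPM (SD, n = 2) and 169 ± 12.5 (SD, n = 3), a log2 fold of -0.78 ± 0.11 (SE). Sept7, a core subunit of septin filaments (chr9:25252439-25308571, plus strand), had 251 and 230 CPM in PBS and 221, 191 and 215 in PM. All PM libraries were below PBS, but the gap between PM 1 and PBS 3 was small, and the log2 fold was -0.20 ± 0.11 (SE). Sept2, which gives its name to its subgroup (chr1:93478964-93510260, plus strand), had 161 and 172 CPM in PBS and 165, 164 and 159 in PM. Its groups overlapped within a narrow range, and the log2 fold was -0.03 ± 0.11 (SE). Sept9, a septin known to bind microtubules (chr11:117199661-117362325, plus strand), was the lowest of the 10 at 10.2 and 11.9 CPM in PBS and 14.6, 9.60 and 10.7 in PM. PM 1 was the highest of the 5 libraries and PM 2 the lowest, the counts were between 67 and 125, and the log2 fold was 0.08 ± 0.26 (SE).

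Sept4 made up less of the septin total in PM. Within a library, its count was 1.87 and 1.63 times that of Sept2 in PBS, and 1.10, 0.968 and 1.03 times in PM. Against Sept7 the ratio was 1.20 and 1.21 in PBS and 0.827, 0.833 and 0.763 in PM, and both ratios were lower in every PM library than in either PBS library. Per kilobase, Sept4 held 37.9% and 37.8% of the summed level of all septins in PBS, and 28.7%, 26.5% and 28.1% in PM, where it still stood above Sept7 in each library. The sum of all septins was 460 and 428 CPM per kilobase in PBS and 369, 348 and 339 in PM. For the lists of other genes, the background over all tested genes was 6.05% lower and 7.26% higher at a p of 0.05 before adjustment in edgeR, and 0.818% lower and 1.9% higher among DESeq2's calls. Of the 9 septins outside the 10 genes, 7 were tested and 0 were called in either direction by edgeR (none before adjustment at 0.05, and none in DESeq2), with a median log2 fold of -0.02. Sept8, the most abundant of them, had 146 and 136 CPM in PBS and 118, 134 and 132 in PM. Its PM libraries lay just below PBS, with a log2 fold of -0.14 ± 0.11 (SE). Sept11 followed with a log2 fold of -0.21 ± 0.14 (SE), the lowest of the 7, and Sept3 had the highest, 0.88 ± 0.68 (SE), which came from PM 2 (16.5 CPM against 3.46 to 5.45 in the other libraries). Sept12 and Sept14, known mainly from testis, were at 0 counts in every library.

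**Figure D2:**
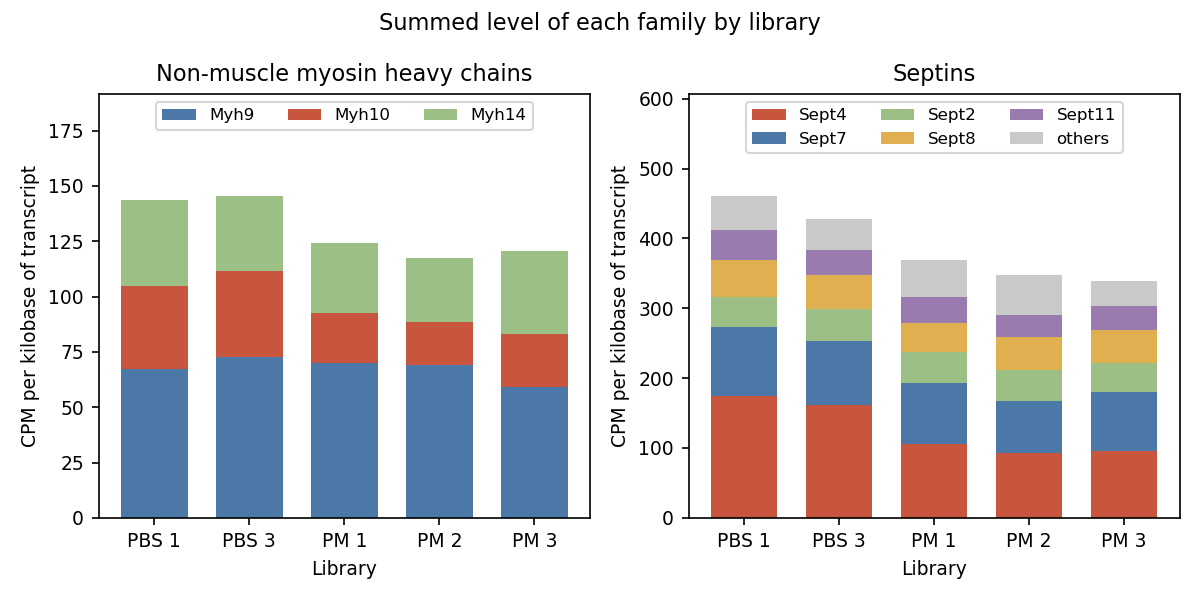
Stacked CPM per kilobase of longest coding transcript for the non-muscle myosin heavy chains (left) and all septins (right), one bar per library. The Myh10 segment falls from 37.7 and 38.8 in PBS to between 19.5 and 23.9 in PM, and the Sept4 segment from 175 and 162 to between 92.2 and 106.

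In the third family, Limch1 and Ablim3 were lower in PM and Ablim1 was not. Limch1 (chr5:66745827-67057158, plus strand) was the most abundant of the 10 and ranked 38 among all tested genes by mean CPM. It had 1564 and 1502 CPM in PBS 1 and PBS 3, and 1015, 845 and 943 CPM in PM 1, PM 2 and PM 3. PM 1 was the highest PM library and still lay far below both PBS libraries. The means were 1533 ± 43.7 CPM (SD, n = 2) and 934 ± 85.5 (SD, n = 3), a log2 fold of -0.71 ± 0.12 (SE). Ablim3, an actin-binding LIM protein known to bind the muscle regulator ABRA, had 99.1 and 82.0 CPM in PBS and 51.4, 51.9 and 56.9 in PM. The 3 PM libraries were close together, while the PBS libraries differed more from each other, and the log2 fold was -0.76 ± 0.13 (SE). Ablim1, its broadly expressed relative (chr19:57032733-57314919, minus strand), had 152 and 141 CPM in PBS and 155, 138 and 134 in PM. PM 1 was above both PBS libraries and the other PM libraries just below them, with a log2 fold of -0.04 ± 0.12 (SE). The count ratio of Ablim3 to Ablim1 within a library was 0.653 and 0.583 in PBS and 0.332, 0.376 and 0.423 in PM. The coding sequences of Ablim1 and Ablim3 were 62.9% identical, and those of Limch1 and the Ablim genes 41.7% and 42.2%. Summed per kilobase, the 3 genes stood at 353 and 335 in PBS and at 234, 198 and 218 in PM, most of it Limch1.

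The 4 lower genes were ordered alike among the PM libraries only in part. PM 2 was the lowest library for Myh10, Sept4 and Limch1, whereas Ablim3 was lowest in PM 1. On the log2 scale against the PBS mean, Myh10 was at -0.76, -0.98 and -0.68 in PM 1, PM 2 and PM 3. Sept4 was at -0.67, -0.87 and -0.83, Limch1 at -0.59, -0.86 and -0.70, and Ablim3 at -0.82, -0.80 and -0.67. Every one of these 12 values was thus at or below -0.59. The log2 folds of the 4 genes were below 0 in all 15 alternative settings. These reuse the counts that chose the genes, so the shared sign is no separate support. With PM 1 left out edgeR called 0 of the 10 genes in place of 4, beside 1 lower and 11 higher of 13837 tested genes. With PBS 1 left out Myh10, Sept4, Limch1 and Ablim3 had log2 folds of -0.82, -0.73, -0.68 and -0.62. With PBS 3 left out these were -0.78, -0.84, -0.74 and -0.89.

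Ordered by CPM per kilobase in PBS, Limch1 led with 304 ± 8.66 (SD, n = 2), followed by Sept4 (168), Sept7 (95.0), Myh9 (69.9), Sept2 (44.1), Myh10 (38.3), Myh14 (36.4), Ablim1 (20.4), Ablim3 (20.0) and Sept9 (3.05). Neighbours were apart in both PBS libraries except Myh10 and Myh14, and Ablim1 and Ablim3, whose ranges overlapped. In PM the order ran Limch1 (185 ± 16.9, SD, n = 3), Sept4 (97.7), Sept7 (82.5), Myh9 (66.1), Sept2 (43.1), Myh14 (32.6), Myh10 (22.0), Ablim1 (19.9), Ablim3 (11.8) and Sept9 (3.22). Myh10 now lay below Myh14 in every PM library and overlapped Ablim1, and Ablim3 had moved clear below Ablim1. The order depends on the gene length used: with all annotated exons merged, Sept7 moved from rank 3 to rank 7 in PBS (20.7 per kilobase), where its merged exons total 11631 bases against 2533 in that transcript, while Limch1 (149), Sept4 (81.5) and Sept9 (1.46) kept their ranks. With that length Myh10 was below Myh14 already in both PBS libraries, and Ablim3, above Ablim1 in PBS (20.0 against 12.2), was level with it in PM (11.8 against 11.9), so neither change of order above holds on both lengths. Shares depended on the length too, Myh9 being 38.1% and Myh14 34.3% of the heavy chains in PBS 1 with merged exons, and Sept4 48.2% of all septins. On merged exons Myh10 made up 27.6% and 28.6% of the heavy chains in PBS and 19.8%, 18.1% and 20.8% in PM, and Sept4 made up 48.2% and 47.7% of the septins in PBS and 37.4%, 34.4% and 36.8% in PM, so both shares were again lower in every PM library. Exons of Myh14, Sept4 and Sept7 overlap other annotated genes by 60, 45 and 245 bases, and none of those genes is in the count tables. Another annotated entry named Sept2 shares 3335 exon bases with Sept2, and the tables hold the symbol once.

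Light chains and regulators of the myosin machinery held no called gene. Of 4 tested light chains of the non-muscle and smooth muscle type, edgeR called 0 (1 lower at 0.05 before adjustment, and none in DESeq2), with a median log2 fold of -0.12. Myl12a, a regulatory light chain, had 688 and 824 CPM in PBS and 669, 701 and 682 in PM, with overlapping groups. Myl12b, its close relative, had 246 and 245 CPM in PBS and 186, 190 and 219 in PM, all PM libraries being lower, with a log2 fold of -0.31 ± 0.11 (SE). Myl6, the essential light chain, had the highest log2 fold of the 4, 0.22 ± 0.14 (SE), with overlap. Myl12a and Myl12b are near-identical neighbours, so the division of reads between them is uncertain.

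Of 17 tested regulators of light chain phosphorylation, edgeR called 0 (2 lower and 0 higher at 0.05 before adjustment), DESeq2 called 1 lower, and 14 had a log2 fold below 0, with a median of -0.12. Mylk, the kinase that phosphorylates the regulatory light chain, had 692 and 701 CPM in PBS and 555, 535 and 460 in PM. Its PM libraries were all lower, and the log2 fold of -0.43 ± 0.12 (SE) had an adjusted p of 0.140 in edgeR. Rhoa, a small GTPase, had a log2 fold of -0.03 ± 0.11 (SE) with overlapping groups. The extremes of the list were genes of cell division with few counts, Cit (citron kinase, -0.75 ± 0.85, SE) and Ect2 (a regulator of cytokinesis, 0.88 ± 0.68, SE), and both overlapped.

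Of 7 tested genes listed as partners of non-muscle myosin, 6 had a log2 fold below 0, with a median of -0.28. In edgeR 1 was called, in the other direction, beside 0.142% of all tested genes called higher. At 0.05 before adjustment 1 was higher and 1 lower, and DESeq2 called 1 higher. The list was chosen with earlier results of these data known. S100a4, a calcium-binding protein known to bind the myosin IIA tail and to loosen its filaments, had 55.3 and 74.2 CPM in PBS and 116, 127 and 112 in PM. All PM libraries were above both PBS libraries, and S100a4 rose by a log2 fold of 0.87 ± 0.14 (SE), with an adjusted p of 0.0385 (edgeR, Benjamini-Hochberg). The call was lost in 6 of the 15 alternatives, with adjusted p of 0.444 without PBS 1, 0.0883 without PBS 3, 0.0988 without PM 1, 0.0736 by library totals, 0.0651 with non-robust estimation and 0.0864 in limma-voom. S100a4 is also abundant in leukocytes, whose 8 marker genes summed to 893 and 940 CPM in PBS and to between 1309 and 1369 in PM, and their part in its rise was not tested. Cald1, which encodes caldesmon, had 476 and 423 CPM in PBS and 386, 337 and 345 in PM, all lower, with a log2 fold of -0.34 ± 0.12 (SE). Svil, which encodes the myosin-binding supervillin, was at -0.05 ± 0.15 (SE), and Shroom1, with few counts, at -0.72 ± 0.68 (SE). Of 7 septin partners 0 were called by edgeR (1 higher and 2 lower at 0.05 before adjustment, none in DESeq2), with a median of -0.21. Cdc42, the GTPase whose effectors bind septins, was at -0.02 ± 0.11 (SE), Cdc42ep4, one of those effectors, at -0.47 ± 0.17 (SE), and Anln, the anillin of the cleavage furrow, at 1.17 ± 0.52 (SE) with 1.28 to 5.30 CPM.

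**Figure D3:**
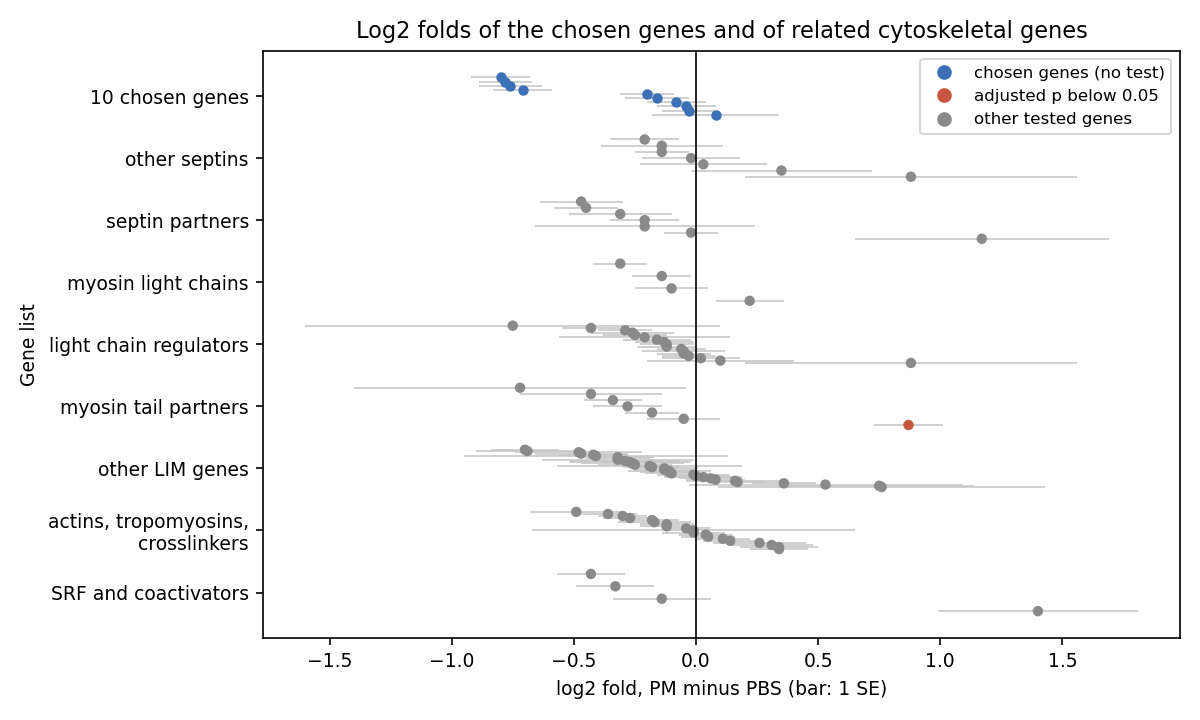
Log2 fold (PM minus PBS) of each tested gene, one row per list, with a bar of 1 SE on either side; blue marks the 10 chosen genes, which carry no test, and red an adjusted p below 0.05 in the other lists. The 4 blue points at the left are Myh10, Sept4, Ablim3 and Limch1, and the red point is S100a4 at 0.87.

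The wider LIM family held no called gene. Of 31 tested LIM genes outside the 10, edgeR called 0 (5 lower and 1 higher at 0.05 before adjustment), DESeq2 called 1 lower, and 21 had a log2 fold below 0, with a median of -0.13. Pdlim2, a PDZ and LIM domain protein known to act also as a nuclear ubiquitin ligase, was nearest to the threshold, with 227 and 209 CPM in PBS and 128, 114 and 161 in PM. Every PM library was lower, and the log2 fold of -0.70 ± 0.14 (SE) had an adjusted p of 0.0634 in edgeR. Lmo7, the most abundant, had 600 and 573 CPM in PBS and 435, 401 and 574 in PM, where PM 3 fell between the PBS libraries. Crip2 showed the same split, with 424 and 384 CPM in PM 1 and PM 2 and 551 in PM 3, above both PBS libraries (531 and 548). Fhl2 had the highest log2 fold, 0.76 ± 0.67 (SE), from few counts. Among 19 tested actins, tropomyosins and crosslinkers, edgeR called 0 (4 lower and 1 higher at 0.05 before adjustment, none in DESeq2), with a median of -0.01. Actb, the cytoplasmic beta-actin, had 6771 and 6097 CPM in PBS and 8210, 9515 and 6178 in PM, overlapping, and Msn, the membrane linker moesin, was at -0.12 ± 0.11 (SE). Flna, a filamin, and Tln2, a talin, marked the ends of that list at 0.34 ± 0.16 and -0.49 ± 0.19 (SE). Of SRF and its coactivators 0 of 4 were called by edgeR (1 higher and 1 lower at 0.05 before adjustment, none in DESeq2). Srf was at -0.33 ± 0.16 (SE), Mkl2 at -0.43 ± 0.14 (SE), and Myocd, the muscle coactivator, at 1.40 ± 0.41 (SE), with 1.97 and 1.98 CPM in PBS and 5.73, 5.30 and 4.67 in PM.

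Summed levels of cell type markers are given beside the 4 lower genes, since several of the sums lay apart in PM and PBS. In bulk tissue, fewer cells of a type and less RNA per cell cannot be told apart. No list of markers held a called gene in edgeR's fit, and none of the markers was at 0 in all libraries. The 8 alveolar type 1 markers summed to 6703 and 6634 CPM in PBS and 5185, 5052 and 5523 in PM, with 8 of 8 log2 folds below 0, a median of -0.30, and 4 of 8 lower at 0.05 before adjustment, beside 6.05% of all tested genes. Ager (-0.41) and Cldn18 (-0.27) were the most abundant, and Akap5 (-0.51) and Clic5 (-0.14) the extremes of the log2 folds. The 8 fibroblast markers summed to 4854 and 4556 CPM in PBS and 3656, 3203 and 3007 in PM, with 7 of 8 below 0, a median of -0.36, and 3 of 8 lower at 0.05 before adjustment, beside the same 6.05%. Inmt (-0.76 ± 0.15, SE) and Npnt (-0.35) were the most abundant, and Pdgfra (-0.78 ± 0.14, SE) and Col1a2 (0.04 ± 0.23, SE) the extremes. The 8 endothelial markers summed to 2570 and 2595 CPM in PBS and 2210, 1856 and 2244 in PM, with 7 of 8 below 0, a median of -0.38, and 6 of 8 lower at 0.05 before adjustment, again beside 6.05%. Calcrl (-0.15) and Kdr (-0.38) were the most abundant, and Tie1 (-0.62) and Cldn5 (0.02) the extremes. Sums of all 3 lists were lower in every PM library than in either PBS library. So was that of the 10 genes, chosen on this comparison, at 3584 and 3479 CPM in PBS and 2704, 2411 and 2551 in PM. Such sums weigh abundant genes most. Mean CPM in PBS and PM was 3243 and 2448 for Ager, 2661 and 1566 for Inmt and 1533 and 934 for Limch1. The 4 mesothelial markers summed to 128 and 105 CPM in PBS and 102, 92.7 and 99.6 in PM, also lower in every PM library. Log2 folds were below 0 in 3 of 4, from Upk3b at -0.45 and Lrrn4 at -0.42 to Msln at 0.01.

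Sums of the remaining lists overlapped between the groups or were higher in PM. The 7 smooth muscle markers summed to 435 and 375 CPM in PBS and 481, 531 and 384 in PM, overlapping, with a median of 0.04 and genes on both sides, from Des at -0.74 ± 0.19 (SE) through Tagln at 0.20 to Acta2 at 0.61 ± 0.17 (SE). The 6 alveolar type 2 markers summed to 22620 and 18410 CPM in PBS and 23650, 20620 and 22410 in PM, with a median of 0.02 and log2 folds from -0.14 (Abca3) to 0.40 (Sftpa1), Sftpc being at 0.08 and Sftpb at -0.02. Leukocyte markers were above 0 in 8 of 8, with a median of 0.54 and 4 of 8 higher at 0.05 before adjustment, beside 7.26% of all tested genes. Lyz2 (0.55) and Laptm5 (0.56) were the most abundant, and Itgam (0.89) and Cd79a (0.10) the extremes. For 5 of the 8 leukocyte markers every PM library lay above every PBS library, beside 15.5% of all tested genes. The 6 ciliated cell markers summed to 68.3 and 76.6 CPM in PBS and 91.4, 155 and 139 in PM. Their log2 folds were above 0 in 5 of 6, with a median of 0.76, and ran from -0.01 (Tekt1) to 1.22 (Dnah9). Foxj1 and Rsph1 were both at 0.76. At 0.05 before adjustment 4 of 6 ciliated cell markers were higher and 0 lower, beside 7.26% and 6.05% of all tested genes. On that measure 1 of 7 smooth muscle markers was higher and 2 lower. For alveolar type 2 markers 1 of 6 was higher, and for mesothelial markers 1 of 4 was lower. DESeq2 called 2 alveolar type 1, 2 fibroblast, 1 endothelial and 1 smooth muscle marker lower, and 2 ciliated, 1 leukocyte and 1 smooth muscle marker higher, beside 0.818% and 1.9% of all tested genes. The part of any cell type in the lower levels of Myh10, Sept4, Limch1 and Ablim3 was not tested.

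**Figure D4:**
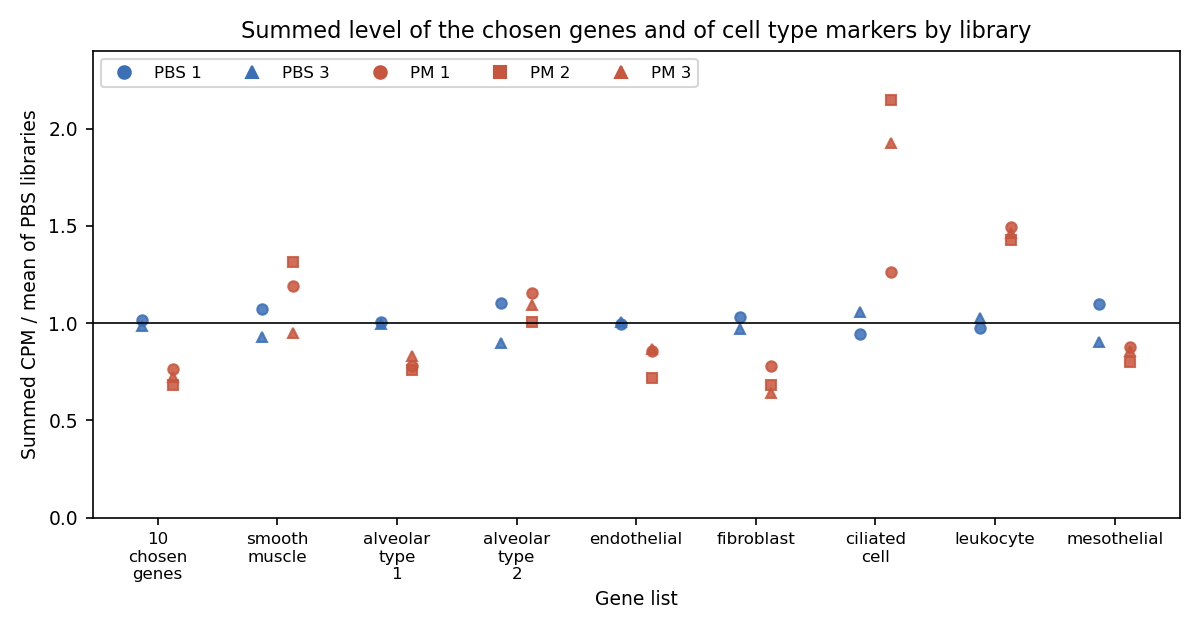
Summed CPM of the 10 cytoskeletal genes and of each list of cell type markers in each library, divided by the mean of the PBS libraries (linear axis, line at 1). Sums of the 10 genes and of alveolar type 1, endothelial, fibroblast and mesothelial markers lie below the line in all PM libraries. Sums of leukocyte and ciliated cell markers lie above it.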

How the data were processed

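Lung RNA of 6 mouse samples (3 PBS, 3 PM) was extracted with an easy-BLUE kit and made into libraries with Lexogen's SENSE mRNA-Seq kit, per the labels' protocols. TopHat, Cufflinks and the build mm10 are named without role or version per the submitters' processing notes. The sources used here do not give the counting program, annotation or use of strand. The authors deposited raw read counts per gene symbol, whole numbers without normalization, with total counts from 7410200 to 8827202 per library. Whether reads of genes that overlap on opposite strands were kept apart in the counts is therefore unknown.

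Groups follow the sample titles and treatment labels. The 2 tables labelled PBS replicates 1 and 2 held equal values, differed by less than sampling noise and were counted as 1 sample. No label states that each sample is a different animal, and p-values then cover the spread among these samples only, which may be technical. An entry without a name was left out. Where a symbol stood in several entries (79 entries), the one with the highest total was used, and 44 entries holding 0.0246% of counts were dropped. The 10 genes and all lists were chosen with earlier results of these data known. In each list, the genes named were every called gene, the 2 with the highest mean CPM, and those with the lowest and the highest log2 fold. Myh11, a smooth muscle marker outside this rule, was named for its shared sequence.

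The comparison was fitted with edgeR 4.0.16 under R 4.3.3 (filterByExpr, TMM, robust quasi-likelihood fit, two-sided test, no covariates, Benjamini-Hochberg adjustment over 14057 tested genes). The procedure was first run on simulated data whose changed genes had log2 folds larger in size than those of the 10 genes. Nothing about the calls reported here is read from that run. CPM, its values per kilobase and all folds were computed here from the deposited counts. Lengths are those of the longest coding transcript, and merged exons were added as an alternative after seeing the data. Coding sequences from GENCODE M21 were aligned with mafft 7.526. Promoters came from RefSeq tables for GRCm38.p6, the same assembly as mm10, where 9 of the 10 genes had an entry. Alternatives were other scalings, filters and estimation, DESeq2 1.42.0, limma-voom (limma 3.58.1), the replicate number as a block, all 6 tables, counts without Rn45s and haemoglobin genes, and each library left out in turn.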

Additional observations from a re-analysis of the deposited data

How the results depend on the processing

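The log2 folds of Myh10 (-0.86 to -0.72), Sept4 (-0.85 to -0.73), Limch1 (-0.78 to -0.65) and Ablim3 (-0.89 to -0.62) were below 0 in all 15 alternatives. Since the alternatives reuse the counts that chose these genes, the shared sign is no separate support. Among the other members, Sept2 (-0.08 to 0.01), Ablim1 (-0.10 to 0.02) and Sept9 (-0.11 to 0.20) changed sign between alternatives. Of the 10 members, 4 were called lower in edgeR's main analysis, 1 with library totals and 1 with non-robust estimation (Sept4 both times), 2 in limma-voom (Myh10 and Sept4), and 0 to 4 with 1 library left out. The count was 0 without PBS 1, PBS 3 or PM 1, where 1151, 985 and 1574 genes had an unadjusted p below 0.05, and 4 without PM 2 or PM 3. With 1 PBS library left out, the lone PBS library is assumed to vary like PM.

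All genes called numbered 32 (12 lower) against 51 with library totals, 275 without a filter (110 lower), 81 with at least 1 CPM in 2 libraries (31 lower), 635 with all 6 tables (289 lower), 382 in DESeq2 (115 lower) and 17 in limma-voom (5 lower). Non-robust estimation called 5 lower. With 1 library left out the calls ran from 1 (without PBS 1) to 427 (without PM 3), and the lower calls from 0 to 166. Calls were 6 without PBS 3, 12 without PM 1 and 106 without PM 2. The share of calls that were higher was 62.5% in the main analysis and 78.4% with library totals (40 higher, 11 lower). The replicate block (replicate number as a term) called 353 genes, 132 of them lower, and the same 4 members. Deviations of same-numbered libraries from their group means correlated at -0.0283 (number 1) and 0.0569 (number 3). With 2 PBS libraries, the deviations of PBS 3 are those of PBS 1 with the sign turned. These values therefore cannot settle whether the numbers pair the samples. For named genes outside the members, 6 of the alternative values lost a call, all for S100a4, and 55 gained one. With all 6 tables the identical PBS tables counted as separate replicates, which understates the spread within PBS. Calls in that setting therefore rest on a copied library. The cause of the other changes was not tested. Depth limits Sept9 and the list genes with few counts, such as Cit, Ect2, Fhl2 and Shroom1.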
